A study of Rattus norvegicus with 8 samples.

Results

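The MHC class II presentation genes of the rat were followed on the Arraystar rat lncRNA array, a 1-colour Agilent oligonucleotide array that carries mRNA probes beside lncRNA probes. The members are RT1-Ba, RT1-Bb, RT1-Da, RT1-Db1, RT1-DMa, RT1-DMb, Cd74 and Ciita, 8 of the 13888 genes that could be named on the array. They were taken as every probe whose RefSeq transcript belongs to one of these genes, which gave 8 of 24684 probes, 1 probe per gene and 1 spot per probe. All animals were male F344 rats examined at week 95 of the model. The lung samples came from NNK-treated rats (NNK is a nitrosamine of tobacco smoke that causes lung cancer) and comprised 3 lung tumors, moderately differentiated adenocarcinomas by the study's pathology, and 3 matched normal lung tissues, so that the normal lung had also been exposed to NNK and no lung of an untreated rat entered the comparison. The other samples were a blood clot from 1 untreated control rat and a blood clot from 1 NNK-treated rat. One label of the NNK blood sample calls it a lung tumor, but the others call it a clot, and it was treated here as blood.

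MHC class II molecules are dimers of an alpha and a beta chain that carry peptides from the endosomes to the cell surface, where CD4+ T cells read them. In the endoplasmic reticulum the invariant chain (Cd74) fills the groove and directs the dimer to endosomes, where proteases cut it down and the DM dimer exchanges the remaining fragment for peptide. The genes are known for expression in B cells, dendritic cells and macrophages, and in the rodent lung also in type 2 alveolar cells. In the rat the RT1-B genes correspond to human HLA-DQ, the RT1-D genes to HLA-DR and the RT1-DM genes to HLA-DM, and Ciita is the coactivator through which the promoters of these genes are switched on.

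The promoters of class II genes share a module that is known to be bound by the RFX complex at an X box and by NF-Y at a Y box, with which Ciita then associates. The stretches below are shown so that the members can be compared for these boxes. RefSeq promoters of the assembly GRCr8, each running from 250 bases before to 50 bases after the start of the gene, were searched on both strands for the Y box core ATTGG and for an X box pattern, which reads AG, any pair of bases, AC, any 3 bases and TG. A promoter sequence was matched for 6 of the 8 members, and RT1-DMb and Ciita were not matched. Each line reads 5′ to 3′ along the gene's strand, and capitals mark the X pattern, where it was found, and the ATTGG.
RT1-Da: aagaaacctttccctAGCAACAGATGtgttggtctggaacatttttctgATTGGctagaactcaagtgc
RT1-Db1: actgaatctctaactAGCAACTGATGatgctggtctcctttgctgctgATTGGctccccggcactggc
RT1-Bb: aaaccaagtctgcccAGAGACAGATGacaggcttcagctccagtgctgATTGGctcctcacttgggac
RT1-Ba: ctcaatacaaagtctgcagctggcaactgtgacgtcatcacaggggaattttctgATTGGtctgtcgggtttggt
RT1-DMa: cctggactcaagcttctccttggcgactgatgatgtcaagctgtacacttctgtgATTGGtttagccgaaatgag
Cd74: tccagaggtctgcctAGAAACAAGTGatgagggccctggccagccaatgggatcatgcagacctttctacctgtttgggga
The stretches lie at chr20:4515317-4515385 on the + strand for RT1-Da, at chr20:4560223-4560290 on the - strand for RT1-Db1, at chr20:4604160-4604227 on the - strand for RT1-Bb, at chr20:4576959-4577033 on the + strand for RT1-Ba, at chr20:4712380-4712454 on the - strand for RT1-DMa and at chr18:56526974-56527054 on the + strand for Cd74. In RT1-Da the start of the X pattern stood 34 bases before the ATTGG, and in RT1-Db1 and RT1-Bb 33 bases. These 3 members, from both classical dimers, therefore held the pair in one arrangement. RT1-Ba and RT1-DMa held ATTGG on the gene's strand and no match to the X pattern in this window, and Cd74 held the X pattern with ATTGG on the other strand only. Of all 33469 promoters of this length, 37.5% held ATTGG, 14.9% held the X pattern, and 0.209% (70 promoters) held the X pattern starting 28 to 40 bases before ATTGG on one strand. A match is a description of the letters, and the absence of one says only that these letters were not found in the window.

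The array files give each spot a background-subtracted fluorescence intensity, the processed signal. Its log2 values were quantile-normalized over the 6 lung arrays for the lung comparison and over the 2 blood arrays for the blood comparison, so that a level can be compared between samples for one probe but not between probes. The 75th percentile of the processed signal was 1191 to 1329 for lung, 95.4 for control blood and 205.8 for NNK blood, and no spot was saturated. Sftpc, which defines type 2 alveolar cells, was well above background on all 6 lung arrays and on neither blood array. The red cell gene Alas2 read 19.20 and 19.33 in control and NNK blood. The arrays of a group were close to each other. The mean squared difference between any pair of normal lung arrays was 0.447 to 0.761 times that expected from the spread between spots of one probe, and between tumor arrays 2 and 3 it was 0.462 times, while tumor array 1 differed from these by 2.78 and 3.10 times the spot noise. Arrays that differ by less than the spot noise may be repeats of one RNA sample. The lung result of each member other than Ciita is therefore given over 3 against 3 arrays and also with such arrays averaged and counted as 1 sample. This leaves 1 normal lung and 2 tumor samples, so that normal lung is taken to be as variable as tumor and the spread rests on the tumor samples and on what limma shares across probes. Relatives and lists are given over 3 against 3 arrays alone. The p-values over 3 against 3 arrays measure only the spread between these arrays, which may be technical. Arrays with the same scan date in their file headers were taken as one slide, since the slide itself was not read from a label. By this rule slide 1 carried all normal lung samples together with tumor 1, slide 2 carried tumors 2 and 3, and slide 3 the blood.

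In lung tumor, every member read higher than in normal lung. The chains of the classical dimers were higher by 1.37 to 1.65-fold, the DM chains by 2.55 and 2.84-fold and Cd74 by 2.00-fold, while Ciita was well above background on all 3 tumor arrays and on 0 of the normal lung arrays. The comparison asks which transcripts differ between the NNK-induced tumor and its matched lung. With limma and a Benjamini-Hochberg adjusted p of at most 0.05 over 12471 probes, 7 of the 7 members tested were higher in tumor, where 34.9% of all probes were higher and 32.4% lower, and with the 2-fold threshold of the study added 4 were (RT1-DMa, RT1-DMb, Cd74 and Ciita), where 13.8% of all probes were higher and 15.9% lower. Ciita could pass the filter on dim probes only through its tumor arrays, so it is given as a value and not as support for the count, and without it 6 of 6 were higher at the adjusted p and 3 of 6 with the 2-fold threshold. RT1-Db1 could not be tested after spots marked as outliers by the scanner software were left out, and its value comes from the same fit with these spots kept, in which 35.2% of 15803 probes were higher, and 13.8% by at least 2-fold. No member fell. The median log2 fold change of the 7 members tested was 1.00, with Ciita at its bound as well, and that of the 6 without Ciita was 0.76, against 0.065 over all probes tested and -0.001 over mRNA probes. In bulk tissue, more cells of a type and more RNA per cell cannot be told apart.

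**Figure D1:**
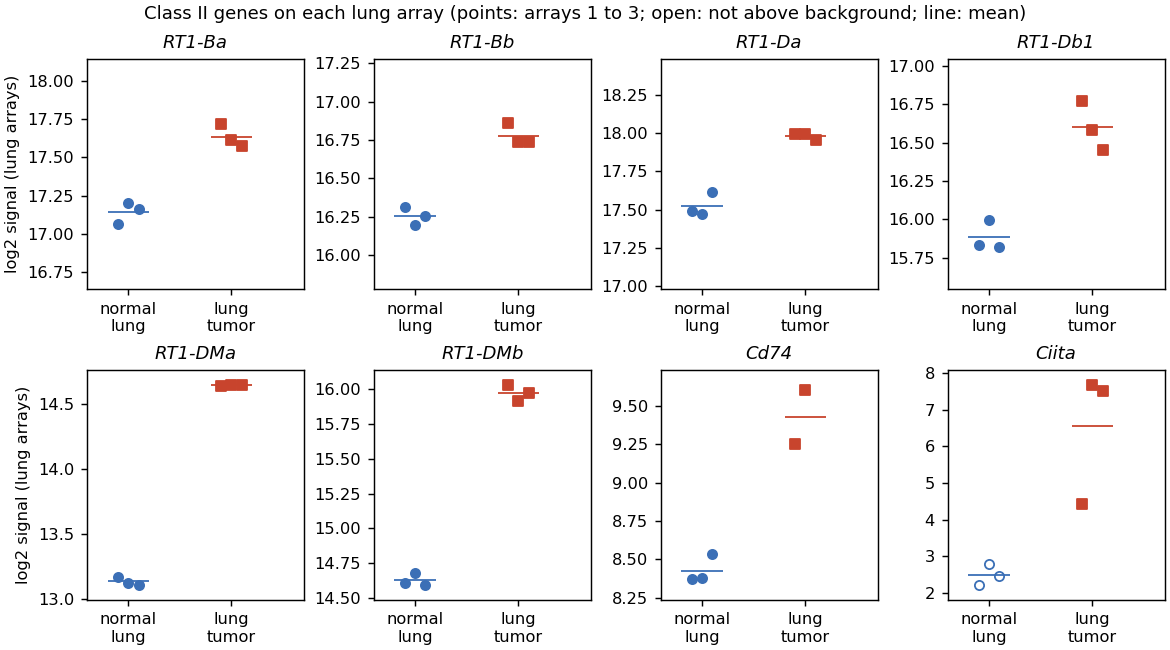
Log2 signal of each class II gene on the 3 normal lung arrays (blue circles) and the 3 lung tumor arrays (red squares), quantile-normalized within the lung arrays, with the group mean as a line and its own axis range for each gene. The tumor mean lies above the normal mean for each gene. Open circles for Ciita are not well above background, tumor array 3 of Cd74 is left out for its outlier mark, and the RT1-Db1 values include 3 marked spots.

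The alpha chain RT1-Ba (NM_001008831.3) read 17.06, 17.20 and 17.16 on normal lung arrays 1 to 3 and 17.72, 17.61 and 17.57 on tumor arrays 1 to 3 on the log2 scale. Its log2 fold change was 0.49 (SE 0.052, adjusted p = 0.000125 by limma, 0.000543 with near-identical arrays counted once). Its partner, the beta chain RT1-Bb (NM_001004084.2), read 16.31, 16.20 and 16.25 in normal lung and 16.86, 16.74 and 16.74 in tumor. The log2 fold change of RT1-Bb was 0.52 (SE 0.048, adjusted p = 5.66e-05 by limma), and 0.54 counted once. The chains of this dimer thus differed by nearly the same amount. Their DR-type counterparts behaved alike in direction. RT1-Da (NM_001008847.2), the alpha chain, read 17.49, 17.47 and 17.62 in normal lung and 17.99, 17.99 and 17.95 in tumor. Its log2 fold change was 0.45 (SE 0.044, adjusted p = 7.72e-05 by limma, 0.000691 counted once). RT1-Db1 (NM_001008884.2), the beta chain, read 15.83, 15.99 and 15.82 in normal lung and 16.77, 16.58 and 16.45 in tumor with marked spots kept, the marks being on normal array 3 and on tumor arrays 2 and 3. Its log2 fold change was 0.72 (SE 0.088, adjusted p = 0.00033 by limma), and 0.76 counted once. None of the 4 chains reached the 2-fold threshold. RT1-Db1 has a near-identical neighbour gene, RT1-Db2, whose own probe was well above background on 1 normal array and on no tumor array, and cross-hybridization between these genes was not tested.

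The DM dimer edits the peptide content of the classical dimers and does not present peptide itself. RT1-DMa (NM_198741.2), its alpha chain, read 13.17, 13.13 and 13.11 in normal lung and 14.64, 14.65 and 14.65 in tumor. The rise was 1.51 on the log2 scale (SE 0.037, 2.84-fold, adjusted p = 1.02e-07 by limma, 5.46e-07 counted once). RT1-DMb (NM_198740.2), its beta chain, read 14.60, 14.68 and 14.59 in normal lung and 16.03, 15.92 and 15.97 in tumor, a rise of 1.35 (SE 0.044, 2.55-fold, adjusted p = 3.20e-07 by limma, 3.09e-07 counted once). Both chains passed the 2-fold threshold and had the smallest SE relative to their change among the members. Whether the DM chains differed from the classical chains in the size of their change was not tested.

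Cd74 (NM_013069.2), the invariant chain, read 8.37, 8.38 and 8.53 in normal lung and 9.25 and 9.61 on tumor arrays 1 and 2, and the spot of tumor array 3 carried an outlier mark. The rise of 1.00 on the log2 scale (SE 0.13, 2.00-fold, adjusted p = 0.000825 by limma, 0.0164 counted once) lay at the 2-fold threshold. With the marked spot kept, tumor array 3 read 9.60 and the rise was 1.06. The 2-fold call did not hold without normal array 1 (0.97) or without normal array 2 (0.98). Without tumor array 1 or tumor array 2 the probe could not be tested. It also fell short of 2-fold with all 8 arrays quantile-normalized together (0.87), the normexp background correction (0.80), the authors' values (0.97) and slide as a block (0.82).

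Ciita (NM_053529.1), the coactivator, read 4.44, 7.68 and 7.51 on tumor arrays 1, 2 and 3. On normal lung arrays 1 to 3 it read 2.23, 2.80 and 2.47, none of them well above background. The tumor mean was at least 6.46-fold higher than the floor of detection in normal lung, where the floor on each array is the lowest signal well above background, or the probe's signal if that is higher, and the fit gave an adjusted p of 0.00381 by limma, which is no support, since the probe was tested only because its tumor arrays were bright. The tumors were uneven, since tumor array 1 was at least 1.50-fold, tumor array 2 at least 14.2-fold and tumor array 3 at least 12.6-fold above that floor. This split falls between the slides, and tumor array 1 and slide cannot be told apart in it. Fitted log2 differences of Ciita rest on normal arrays at background and are not sizes of a change. They were 4.04 over all arrays, 1.94 with slide as a block, which sets tumor array 1 against the normal arrays of its slide, and 5.09 without tumor array 1. With slide as a block Cd74 had 0.82. For the classical and DM chains tumor array 1 was not the lowest tumor array, except for RT1-DMa, where the SD over the tumor arrays was 0.0060.

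**Figure D2:**
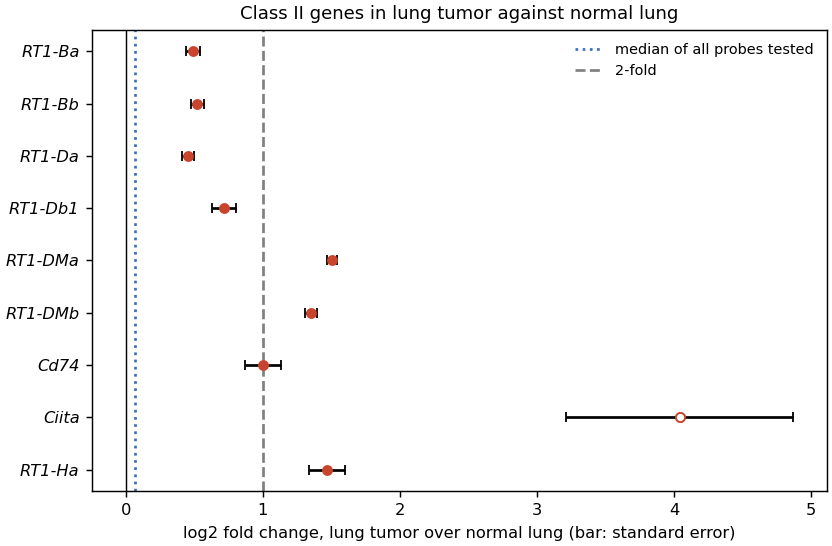
Log2 fold change, lung tumor over normal lung, of the 8 class II genes and the relative RT1-Ha, with the standard error of the limma fit as bars, the median of all probes tested as a dotted line and 2-fold as a dashed line. All points lie to the right of the dotted line at 0.065. The Ciita point is open because its fitted value is set by normal arrays at background.

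On the chromosome the classical and DM genes lie together. In GRCr8 their order on chromosome 20, with relatives not counted among the members, is RT1-Da, RT1-Db2, RT1-Db1, RT1-Ba, RT1-Bb, RT1-DOb, RT1-DMb, RT1-DMa, RT1-DOa and RT1-Ha, while Cd74 lies on chromosome 18. RT1-DOa and RT1-DOb encode the DO dimer, a modulator of DM known mainly from B cells. RT1-DOa was well above background on 2 of 3 tumor arrays and on no normal array, where no fold could be given, and RT1-DOb on no lung array. RT1-Ha, the DP-type alpha chain gene, read 7.26, 6.97 and 7.30 in normal lung and 8.53, 8.57 and 8.82 in tumor. It rose by 1.47 (SE 0.13, adjusted p = 5.22e-05 by limma). Of the 4 relatives on the array it was the 1 that could be tested.

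The promoter of RT1-DOb held the X pattern 31 bases before ATTGG and that of RT1-Db2 32 bases before it, as in the classical members above, and they are shown for that arrangement. Neither gene's probe was well above background on more than 1 lung array.
RT1-DOb: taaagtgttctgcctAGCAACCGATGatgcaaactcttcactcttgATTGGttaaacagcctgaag
RT1-Db2: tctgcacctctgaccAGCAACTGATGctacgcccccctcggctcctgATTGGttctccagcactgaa
They lie at chr20:4627587-4627652 and chr20:4541693-4541759, both on the - strand.

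In blood, 6 of the 7 members compared read at least 2-fold higher in the NNK clot than in the control clot, where 23.1% of 14452 probes did and 19.1% read at least 2-fold lower. With 1 array in each group there is no replicate check and no test. RT1-Bb went from 8.51 in control to 11.90 in NNK blood on the log2 scale, a difference of 3.39. Cd74 went from 5.90 to 8.88, a difference of 2.98. The order of these genes depends on the scaling, since the difference of Cd74 was between 2.13 and 4.57 and that of RT1-Bb between 2.67 and 3.39 over the alternatives, and Cd74 exceeded RT1-Bb with the 75th percentile shift (2.92 against 2.84). RT1-DMb went from 8.12 to 10.65 (5.75-fold). The remaining classical chains differed by similar amounts. RT1-Ba went from 10.25 to 12.73 (5.60-fold), RT1-Da from 10.36 to 12.78 (5.34-fold) and RT1-Db1 from 8.02 to 10.40 (5.21-fold). RT1-DMa stood apart from its partner chain, with 12.70 in control and 13.29 in NNK blood, a difference of 0.59, and this difference was -0.38 when the arrays were scaled on their 75th percentile instead. Ciita was not well above background on either blood array. The median difference over all probes compared was -0.11, and over mRNA probes -0.012.

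**Figure D3:**
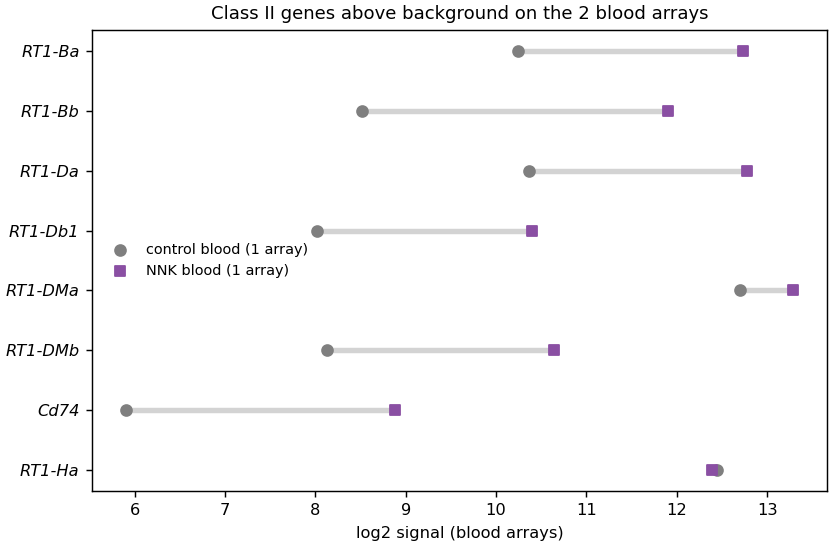
Log2 signal of 7 class II genes and RT1-Ha on the control blood array (grey circles) and the NNK blood array (purple squares), quantile-normalized within the 2 blood arrays, with 1 array for each group. RT1-Bb has the longest distance, 3.39, and RT1-DMa the shortest of the members, 0.59, while RT1-Ha reads 12.45 and 12.39.

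The relatives did not share this difference, since RT1-Ha read 12.45 and 12.39 and RT1-DOa 6.31 and 5.72 in control and NNK blood, and RT1-DOb was well above background on the control array alone. Some white cell markers moved with the members in blood and others did not. Of the B cell markers 3 of 5 compared were at least 2-fold higher in NNK blood and 0 were lower, with a median of 2.06, and their summed signal was 230 in control and 1224 in NNK blood. Of the T cell markers 5 of 8 and of the genes common to leukocytes 5 of 8 were at least 2-fold higher, and 0 of either were at least 2-fold lower. The summed T cell signal was nearly level, with 18844 in control and 19823 in NNK blood. The bright T cell markers Cd3d and Cd2 differed by -0.26 and -0.54. For the genes common to leukocytes the sum was 49339 in control and 75988 in NNK blood. Dendritic markers had 0 of 6 higher and 2 lower, and macrophage markers 2 of 8 higher and 0 lower with a median of 0.47. Some B cell markers were faint, with Cr2 not well above background on either blood array and Cd79b well above it on the NNK array alone. The part of these cells in the class II difference was not tested.

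To order the 4 groups for each gene, all 8 arrays were quantile-normalized together. In this scale RT1-Ba, RT1-Bb, RT1-Da, RT1-Db1 and RT1-DMb had one order, with lung tumor highest, then normal lung, NNK blood and control blood. Normal lung stood above control blood by 4.37 for RT1-Db1, 4.18 for RT1-Bb, 4.14 for RT1-Da, 3.69 for RT1-Ba and 2.72 for RT1-DMb on the log2 scale. Above NNK blood it stood by 2.47 for RT1-Da, 2.00 for RT1-Db1, 1.94 for RT1-Ba, 1.34 for RT1-Bb and 0.30 for RT1-DMb, the closest neighbours in this order. The processed signal of RT1-Da shows the span before any scaling, with 168377 to 191223 in normal lung, 264688 to 272567 in tumor, 1093 in control blood and 7484 in NNK blood. Every lung array lay above both blood arrays for these 5 genes, and also for Ciita, whose normal lung and blood values are all at background and which drops out when the arrays are scaled on the 75th percentile. Among all probes 46.2% did so. Lung and blood differ in tissue and slide at once.

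RT1-DMa and Cd74 had other orders. RT1-DMa was highest in NNK blood (15.22) and control blood (14.85), followed by tumor (mean 13.75) and normal lung (mean 12.14), though the order of the blood arrays turned on the 75th percentile scale. Normal lung minus control blood was thus -2.71 and normal lung minus NNK blood -3.08, and normal lung was below both blood arrays on the 75th percentile scale too, with -3.10 and -2.72. Cd74 was highest in NNK blood (11.87), followed by tumor (mean 8.79), normal lung (mean 7.88) and control blood (7.30). Its step from control blood to normal lung, 0.57, turned to -0.62 on the 75th percentile scale, so that these neighbours have no settled order. The probes of the DM chains therefore ran apart between lung and blood although they rose together in tumor. Each chain has 1 probe of 1 spot, and each blood group 1 array. Whether the probes of RT1-DMa, RT1-DMb and Cd74 detect only their own transcripts was not tested.

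**Figure D4:**
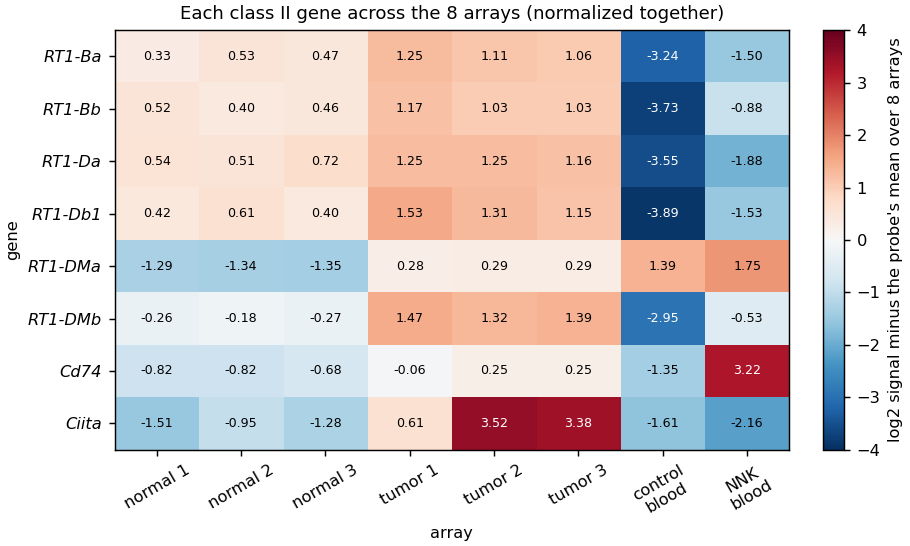
Each class II gene (rows) on the 8 arrays (columns), as log2 signal minus the probe's mean over the 8 arrays, all quantile-normalized together, with red above and blue below the mean. RT1-DMa and Cd74 are highest in NNK blood (1.75 and 3.22), and Ciita stands out on tumor arrays 2 and 3 (3.52 and 3.38).

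The mean pattern of the members over the 8 arrays, Ciita included, was compared with those of 10734 named mRNA probes by the root mean square distance on the log2 scale. The nearest were Mcm6 (0.144), Bzw2 (0.150), Atp5mc1 (0.158), Cbx2 (0.174) and Dennd2d (0.185). Among the members RT1-DMb lay nearest to the mean pattern at 0.291, RT1-Ba, RT1-Bb, RT1-Db1 and RT1-Da lay at 0.641 to 0.828, and Ciita, Cd74 and RT1-DMa at 1.45, 1.52 and 1.77. With 10734 probes searched, a mean of unlike patterns is likely to find closer matches outside than among the members. The nearness of these genes is therefore no result about the members, and the distances are a description over 8 arrays.

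Of 17 transcription factors and signalling genes upstream of the class II promoter, 10 were tested in lung. With the 2-fold threshold and the adjusted p, 1 was called higher and 0 lower, where 13.8% and 15.9% of all probes were. The median log2 fold change was -0.065. Below 2-fold, some regulators passed the adjusted p alone by limma. Nfyc (adjusted p = 0.00125), Irf1 (0.00254) and Rfxap (0.0175) were lower, and Jak1 (0.000405) was higher. Spi1, the ETS factor of myeloid and B cells, was the 1 called higher, by 1.53 (SE 0.040, adjusted p = 1.32e-07 by limma). The subunits of the RFX complex, which binds the X box, had log2 fold changes of -0.10 (Rfx5), -0.21 (Rfxap) and -0.003 (Rfxank). The NF-Y subunits, which bind the Y box, had -0.03 (Nfya) and -0.45 (Nfyc), and -0.59 for Nfyb with marked spots kept. None of these reached the 2-fold threshold. In the interferon gamma pathway, the classical inducer of Ciita, neither Ifng nor Ifngr2 exceeded background clearly on a lung array. Irf1 had -0.20 and Jak1 0.40, and with marked spots kept the receptor chain Ifngr1 had -1.03 (adjusted p = 0.000708 by limma). In NNK blood Irf1 read 3.26 higher and Ifngr1 1.78 higher on the log2 scale, while Irf8 had -1.70 and Ifngr2 -1.44. Irf8 and Ifngr2 were each well above background on only 1 of the 2 blood arrays. Their differences thus rest on a value at background and are not sizes of a change. At least 2-fold higher were 4 of 16 regulators and at least 2-fold lower 3, near the 23.1% and 19.1% of all probes, with a median of -0.14.

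Of 9 genes of antigen processing and costimulation tested, 1 was called higher and 1 lower, where 13.8% and 15.9% of all probes were, and the median was 0.14. Cd86, which like Ciita passed the filter only through its tumor arrays, a costimulatory ligand, was at least 3.05-fold higher, not being well above background on any normal array, and Cd40, the receptor for the helper signal of T cells, fell by 2.33 (5.03-fold lower, adjusted p = 4.97e-05 by limma). Cathepsin S, the protease that trims the invariant chain, had a log2 fold change of 0.75, below the 2-fold threshold. With marked spots kept, Ifi30 had 1.46 (adjusted p = 6.24e-05 by limma) and Lgmn -0.09. Class I presentation, the route that serves CD8+ T cells, had 1 of 9 called higher (Calr, 1.28) and 1 called lower (RT1-CE1, -1.31), with a median of -0.12. With marked spots kept, Tap2 had -1.34 and RT1-S3 -1.45, and the other class I genes left out for marks stayed below 2-fold.

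**Figure D5:**
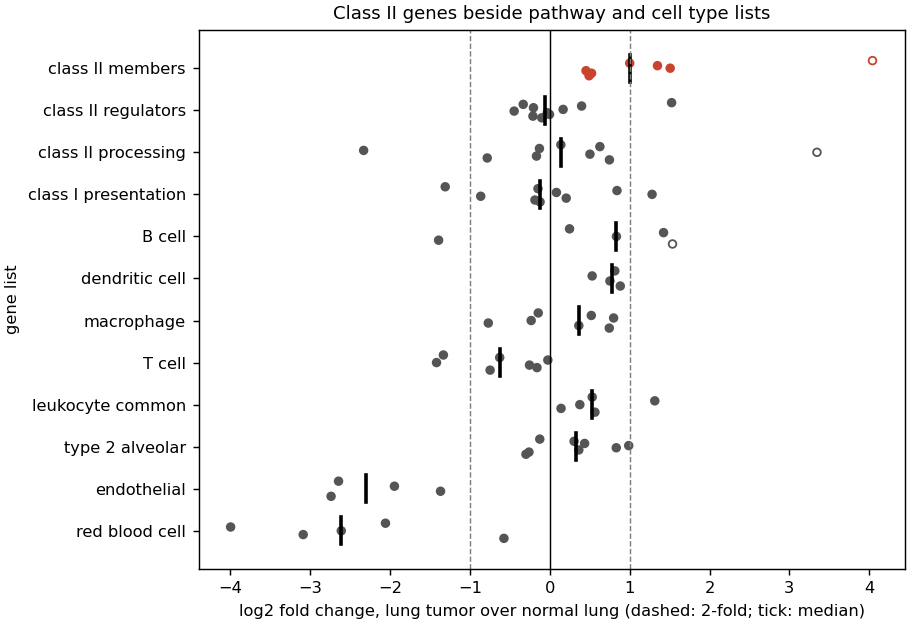
Log2 fold change, lung tumor over normal lung, of the 7 class II members tested (red) and of the tested genes of each pathway and cell type list (grey), with the list median as a black tick and 2-fold as dashed lines. Open points had no normal array well above background. The member median is 1.00, and 0.76 without Ciita. The list medians run from -2.61 (red blood cell) to 0.83 (B cell), with 0.78 for dendritic cell, -0.065 for the regulators and -0.12 for class I presentation.

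Cell types that carry class II were followed by their markers in the same arrays. The 4 dendritic cell markers tested had log2 fold changes below the 2-fold threshold with a median of 0.78, and the summed linear signal over the 7 on the array, with marked spots kept as in the sums below, was 9872 to 10542 in normal lung and 17668 to 18165 in tumor, with Xcr1 not above background. Of 5 B cell markers tested, Cd79b was at least 1.59-fold higher and Cd22 fell by 1.39, the median was 0.83 (0.67 with Cd79b at its bound), and the summed signal over 7 was 2585 to 2783 in normal lung and 3735 to 4642 in tumor. Cr2, a complement receptor of mature B cells, was at background on all lung arrays. Of 7 macrophage markers tested 0 passed the 2-fold threshold, with a median of 0.36. The sum over 13 was 188065 to 197531 in normal lung and 209293 to 237770 in tumor. With marked spots kept, Cd14 had 1.64 (adjusted p = 1.17e-05 by limma), C1qc 0.77 and Fabp4 0.45. Marco, Itgam and Cd163 were at background in lung and on both blood arrays, and whether their probes detect the transcripts was not tested. The genes common to leukocytes had 0 of 5 called, a median of 0.53 and a sum over 8 of 263559 to 272970 in normal lung and 323932 to 328701 in tumor.

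Type 2 alveolar markers had 0 of 8 called and a median of 0.33. Sftpc could not be tested for its outlier marks, and with marked spots kept it had 1.14 (adjusted p = 2.83e-05 by limma). The sum over 9 was 1316258 to 1359012 in normal lung and 1536341 to 1583606 in tumor. The summed signals of the dendritic, B cell, macrophage, common leukocyte and type 2 alveolar lists thus read higher in tumor, and the medians of these lists were positive. A sum is set mostly by its brightest probes. Single markers went the other way, among them Cd22 (-1.39), Csf1r (-0.77) and Sftpb (-0.30) of the B cell, macrophage and type 2 lists. The part of these cells in the class II difference was not tested. T cell markers ran the other way, with 0 called higher, 2 of 7 called lower (Cd8a, -1.42, and Zap70, -1.33) and a median of -0.63. Their sum over 10 was 21743 to 22679 in normal lung and 11154 to 13110 in tumor. Cd4, the coreceptor of the T cells that read class II, was at background in lung. It was at background on both blood arrays too, where other T cell markers were bright (Cd3d 12.73 and Cd2 13.40 in control blood). Whether the Cd4 probe detects its transcript was not tested. All 4 endothelial markers tested were called lower, with a median of -2.29, where 15.9% of all probes were. Of 5 red cell genes tested 4 were called lower, with a median of -2.61. The red cell gene Hbb was lower too (-0.57, adjusted p = 7.53e-06 by limma) but short of 2-fold. The marker signal of vessels and red cells thus differed between tumor and normal lung, and its part in the class II values was not tested.

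The RT1 region differs between rat strains. The animals were F344 and the reference transcripts and promoters are those of the BN strain, so that the promoters shown may differ in the animals, and whether strain differences affect the match of a probe was not tested.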

How the data were processed

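RNA of 3 normal lungs, 3 lung tumors and 2 blood clots was measured on 8 arrays. The authors deposited background-subtracted spot intensities from Agilent Feature Extraction 10.5.1.1, not normalized between arrays, and their own quantile-normalized log2 values over all arrays, which served as an alternative. The log2 processed signals of 42136 spots were quantile-normalized in R 4.3.3, spots with an outlier mark were left out, and spots of a probe were averaged. Among spots above background, 4.92% to 8.62% were marked on normal arrays and 15.9% to 25.3% on tumor arrays. Probes well above background on at least 3 of 6 lung arrays were kept (15803), and 12471 with values on at least 2 arrays per group were tested with limma 3.58.1 (lmFit, eBayes with trend, two-sided, Benjamini-Hochberg). A call needed a 2-fold change and an adjusted p of at most 0.05. Probes were named through RefSeq transcripts of GRCr8, of which 14274 of 15321 matched. The number of arrays limits the precision. Alternatives were other normalizations (75th percentile, all 8 arrays together, the authors' values), the normexp background correction, other filters, marked spots kept, the methods' t-test, blocks for replicate number or slide, near-identical arrays counted once and each array left out. The steps were tested on simulated data. Tumor and normal lung numbers match by label, and the deviations of same-numbered arrays correlated at 0.143, -0.041 and 0.160. The members and lists were chosen with earlier results of these data known. All members, relatives and regulators could be named, with at most 2 rises and 2 falls of each other list, markers at background, and the 5 genes nearest in pattern.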

Additional observations from a re-analysis of the deposited data

How the results depend on the processing

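Each member kept its direction in lung and its side of the adjusted p threshold under the alternatives in which it was fitted. RT1-Db1 was fitted only with marked spots kept or in the authors' values, Cd74 could not be fitted without tumor 1 or 2, and the methods' t-test and unadjusted p were run for the count alone. For Ciita this is no support, since its tumor arrays alone carried it through the filter. The number called, Ciita included, stayed between 3 and 4. Ciita was absent only with probes well above background on all 6 lung arrays, where 3 of 6 members were called. For the other alternatives no count or median without Ciita was made. The number was 3 wherever Cd74 slipped under 2-fold or could not be fitted, or Ciita was filtered out. The median log2 fold change, 1.00, was 0.80 with the normexp background correction, 0.76 with probes well above background on all 6 lung arrays and 0.82 with slide as a block, and between 0.90 and 1.05 when each array was left out. Without tumor array 1 (0.90) or tumor array 2 (0.96) that median was over 6 members, Cd74 being absent. With a replicate block for the paired numbers it was 1.05 with 4 members called, and no member's call changed. The normexp correction, run with an offset of 50, gave 969 probes higher and 1260 lower where the comparison above gave 1725 and 1978, and a Ciita log2 fold change of 1.24. In blood, the log2 difference of Cd74 ranged from 2.13 to 4.57, that of RT1-Bb from 2.67 to 3.39, that of RT1-Ba from 1.67 to 2.48 and that of RT1-Da from 1.60 to 2.42, and RT1-DMa turned to -0.38 under the 75th percentile shift. The causes of these shifts were not tested. The number of members brighter on every lung array than on both blood arrays was 5 in place of 6 with the 75th percentile shift, the normexp correction and the authors' values. Ciita in normal lung and blood is limited by signal over background.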
